A study of Homo sapiens with 6 samples.

Results

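The proteasome genes of COV434 cells, a human ovarian line that its labels call granulosa cells, were compared between cells treated with 4HC and control cells. The genes were all those of the deposited table whose symbol starts with PSM followed by a letter from A to G and a number. This rule gave 47 of the 16798 coding genes. They were grouped by role as 18 genes of the core particle (PSMA and PSMB), 20 of the regulatory particle (PSMC and PSMD), 4 activators (PSME) and 5 genes of assembly and inhibition (PSMG and PSMF1). PSMB11 was not analysed here. Bulk RNA sequencing covered 3 controls and 3 samples of cells kept in 15 µM 4HC for 24 h, and the labels give the genotype of all 6 samples as WT. 4HC is the active metabolite of cyclophosphamide (CTX), an alkylating drug that is toxic to the ovary, and the study used it to ask how CTX acts on granulosa cells. The labels do not say what the control cells received or whether the 3 samples of a group were separate cultures, so that the p-values below measure only the spread between these samples, which may be technical.

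The proteasome is the large protease that degrades proteins tagged with ubiquitin, in the cytoplasm and in the nucleus of every cell. Its core particle is a barrel in which outer rings of alpha subunits (PSMA) gate the entrance and inner rings of beta subunits (PSMB) hold the cutting sites. The regulatory particle caps the barrel, where a ring of ATPases (PSMC) unfolds the substrate and non-ATPase subunits (PSMD) bind ubiquitin chains, remove them and hold the cap together. Other caps are formed by the PSME proteins, and dedicated chaperones (PSMG and others) put the rings together. When proteasome activity falls, the transcription factor NFE2L1 is released from the endoplasmic reticulum by VCP, cut by DDI2 and raises the transcription of proteasome genes through antioxidant response elements. PSMB8, PSMB9 and PSMB10 replace the 3 cutting subunits of the standard core in immune cells and after interferon, and the resulting immunoproteasome favours peptides for presentation on MHC class I.

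Each sample held between 16133786 and 16702316 expected counts, and the proteasome genes took between 0.714% and 0.724% of them. The groups were separated along the first principal component (53.4% of the variance), and control replicate 1 stood apart from the other samples on the second. Of 13 granulosa markers, 11 were in the table and only AMH, INHA and HSD17B1 had enough counts for a test. The defining markers FOXL2, FSHR, CYP19A1, STAR, NR5A1 and GATA4 were at or below 0.185 CPM (counts scaled to library size) in every sample. INHA, INHBA and INHBB were at or below 1.17, 0.905 and 0.123 CPM. HSD17B1 and AMH were detected, with means of 14.2 and 5.19 CPM in the controls and 14.1 and 5.27 CPM in 4HC. The label of granulosa cells was thus not borne out by the defining markers, while HSD17B1 and AMH were present. Of 12 markers of fibroblasts, endothelial, immune and epithelial cells in the table, 6 could be tested and 0 differed between the groups at an adjusted p-value under 0.05 or at an unadjusted one (edgeR, and 0 with DESeq2 or limma), with PECAM1, CDH5 and EPCAM below 0.1 CPM. DCN was the highest of these markers, at 42.9 to 50.6 CPM.

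The summed amount of proteasome mRNA differed by less than the spread between samples. The summed level of the 47 genes per length, in TPM (counts scaled to transcript length and to a fixed sum per sample), was 9954, 9870 and 10058 in the controls and 9974, 9901 and 9901 in the 4HC samples. The ranges of the groups overlapped for this total, while the summed levels of the core were higher and those of the regulatory particle and of the activators lower in every 4HC sample. Single genes differed by small amounts in both directions. Of the 46 genes with enough counts for a test, 5 were higher and 14 were lower in 4HC-treated cells in edgeR's quasi-likelihood test, with the p-value adjusted over all genes by the Benjamini-Hochberg method and under 0.05. This is the rule for every gene called higher or lower below. The 19 called genes were 41.3% of the 46, with 10.9% higher and 30.4% lower, while of the 12368 genes tested 36.4% were called, 19.2% higher and 17.1% lower. The excess of lower genes was smaller with library size alone (7 higher and 10 lower) and with limma on the deposited FPKM values (7 higher and 9 lower). The median log2 fold change of the proteasome genes was -0.05, with a range of -0.20 to 0.19, and that of all genes tested was 0.00474. With library size alone these medians were -0.0274 and 0.0255, and with limma on FPKM -0.0288 and 0.0166. The absolute log2 fold change of the 19 called genes had a median of 0.14, against 0.23 for all genes called. No proteasome gene reached a fold change of 2 with an unadjusted p-value under 0.05, which 1.15% of all genes did. In bulk RNA, a lower share of cells with a transcript and less transcript per cell cannot be told apart.

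**Figure D1:**
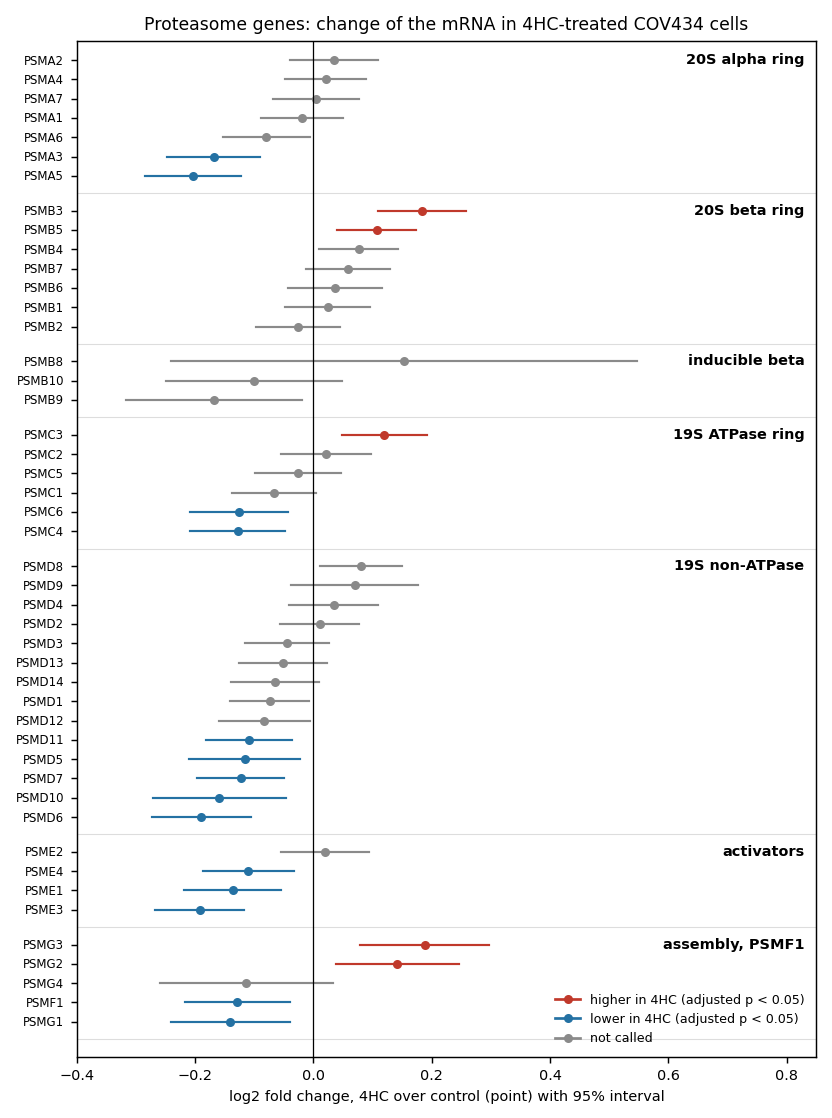
Log2 fold change of each tested proteasome gene in 4HC over control (points) with its 95% interval from edgeR (lines), grouped by role. All 46 points lie between -0.20 and 0.19, with 14 genes lower (blue), 5 higher (red) and the rest not called (grey).

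The groups did not overlap for 27 of the 46 genes, with the 3 samples of 4HC above the controls in 10 and below them in 17. Of all genes tested 45.3% had no overlap, 23.4% with 4HC above and 21.9% below. Of the called genes, all 5 that were higher and 11 of the 14 that were lower had no overlap, and PSMD5, PSMD10 and PSMF1 were the exceptions. Another 11 genes had no overlap and were not called. The number of lower genes was 8 without control replicate 3 and 9 without 4HC replicate 2. In every leave-one-out fit and every other setting with the same threshold, 10 of the 19 calls held, 6 of genes that were lower (PSMA3, PSMA5, PSMD6, PSMD7, PSME1 and PSME3) and 4 of genes that were higher (PSMB3, PSMB5, PSMC3 and PSMG3). With DESeq2 the calls of PSMD5, PSMD10, PSMG1 and PSMG2 were lost, with limma on TPM those of PSMD5, PSMD10, PSME4 and PSMF1, with limma on FPKM these and PSMD11, and with library size alone those of PSMD5, PSME4, PSMF1 and PSMG1. Of the 27 genes not called, 6 passed in some setting. Beside PSMB4 and PSMB9 these were PSMA6 without control replicate 2 (-0.10), PSMD1 and PSMD12 without 4HC replicate 3 (-0.09 and -0.11), and PSMD8 without control replicate 2 or 4HC replicate 3 (0.10 in both), with library size alone and with limma on FPKM.

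**Figure D2:**
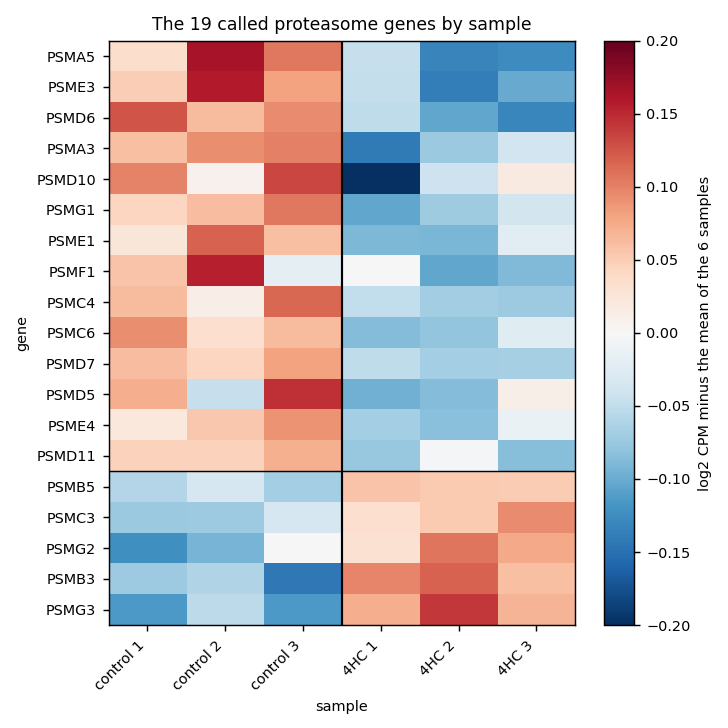
Log2 CPM of the 19 called proteasome genes (rows) in each of the 6 samples (columns), as the difference from the gene's mean over the 6 samples (colour). The 14 lower genes are mostly red in control and blue in 4HC and the 5 higher genes are the reverse, while PSMD10, PSMD5 and PSMF1 have samples of the groups that overlap.

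In the core particle, 17 of 18 genes were tested, of which 2 were higher and 2 were lower (11.8% each, against 19.2% and 17.1% of all genes), and their median log2 fold change was 0.02. Of the 7 tested alpha subunits, 2 were lower and 0 were higher (edgeR), while of the 7 standard beta subunits 2 were higher and 0 were lower. Both counts of 0 were also 0 at an unadjusted p-value under 0.05, with DESeq2 and with limma. The median log2 fold change was -0.02 for the alpha and 0.06 for the beta subunits, and the difference between these lists was not tested.

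PSMA5, a subunit of the alpha ring (NCBI Gene 5686, chr1:109399031-109426427, minus strand, GRCh38), had 129, 141 and 135 CPM in the controls and 122, 115 and 115 CPM in 4HC. All controls were above all 4HC samples. Its log2 fold change was -0.20 (SE, the standard error from the fit, 0.041, adjusted p = 6.5e-05), the largest fall among the proteasome genes. PSMA3, another alpha subunit, had 141, 144 and 145 CPM in the controls and 122, 128 and 132 CPM in 4HC, again with no overlap. Its log2 fold change was -0.17 (SE 0.039, adjusted p = 0.00045). The other 5 tested alpha subunits had log2 fold changes between -0.08 and 0.03, and PSMA6 was the only one among them without overlap (172, 166 and 174 against 162, 161 and 162 CPM). PSMA8, the alpha subunit of the testis, had 0 counts in 5 samples, where 0 counts allow up to 3, and 0.0617 CPM in 4HC replicate 2. It was not tested.

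PSMB3, a beta subunit without a cutting site (NCBI Gene 5691, chr17:38752736-38764231, plus strand), had 161, 162 and 153 CPM in the controls and 181, 184 and 176 CPM in 4HC. The groups did not overlap. Its log2 fold change was 0.18 (SE 0.037, adjusted p = 7e-05). PSMB5, which carries the chymotrypsin-like cutting site and is the target of bortezomib, had 262, 267 and 260.4 CPM in the controls and 284, 283 and 283 CPM in 4HC. It was higher in every 4HC sample, by a log2 fold change of 0.11 (SE 0.033, adjusted p = 0.009). PSMB4, a structural beta subunit, had 312, 309.9 and 303 CPM against 328, 334 and 314 CPM, and the groups did not overlap. Its log2 fold change of 0.08 did not pass the test (adjusted p = 0.066), and it passed without 4HC replicate 3 (0.10, adjusted p = 0.025), with library size alone (0.10, adjusted p = 0.018) and with limma on FPKM (0.09, adjusted p = 0.045). PSMB2 was the only standard beta subunit with a negative log2 fold change (-0.03).

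The promoters of PSMA5 and PSMB3 are shown because these genes of the core particle had the largest fall and the largest rise in it. The sequences are those of RefSeq (GRCh38.p14), from 250 bases before to 50 bases after the start of the gene, and capitals mark CCAAT, which is bound by NF-Y, and TGACNNNGC, the core of the antioxidant response element.
PSMA5 (chr1:109426399-109426698, minus strand): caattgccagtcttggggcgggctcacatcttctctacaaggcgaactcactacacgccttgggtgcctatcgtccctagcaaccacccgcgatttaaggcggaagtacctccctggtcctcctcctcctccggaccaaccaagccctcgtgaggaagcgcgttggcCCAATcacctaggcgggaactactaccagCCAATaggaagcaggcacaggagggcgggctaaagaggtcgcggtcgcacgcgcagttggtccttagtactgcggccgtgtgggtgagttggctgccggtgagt
PSMB3 (chr17:38752491-38752790, plus strand): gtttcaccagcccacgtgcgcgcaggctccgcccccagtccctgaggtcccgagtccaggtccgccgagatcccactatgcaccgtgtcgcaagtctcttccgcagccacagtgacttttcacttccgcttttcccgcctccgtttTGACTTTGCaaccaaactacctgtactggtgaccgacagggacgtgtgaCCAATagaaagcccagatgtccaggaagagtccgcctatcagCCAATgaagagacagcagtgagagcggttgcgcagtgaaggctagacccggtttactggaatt
The PSMA5 window holds CCAAT at positions -83 and -54 from the start and no TGACNNNGC. The PSMB3 window holds TGACNNNGC at -104 and CCAAT at -55 and -13. Both motifs were searched on both strands of 50 promoters, which matched 41 of the 47 genes. PSMA7, PSMB1, PSMB6, PSMB7, PSMD4 and PSMG3 had no entry. TGACNNNGC was in 15 of the 50 promoters (30%) and in 13.3% of all 35116 promoters of the table, and CCAAT was in 19 (38%) and in 34.6% of all. Of the 15 genes with TGACNNNGC, 5 were lower, 2 were higher and 8 were not called, and of the 19 with CCAAT, 7 were lower, 3 were higher and 9 were not called. Among all 46 tested proteasome genes, with or without a motif, 30.4% were lower and 10.9% higher, against 17.1% and 19.2% of all genes. A link between motif and change was not tested. These matches are a description of the letters in the windows.

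The inducible beta subunits were far less abundant than the standard ones that they replace, and none of them was called (0 of 3 by edgeR at the adjusted p-value, and 1 of 3, PSMB9, at an unadjusted p-value under 0.05). In the controls PSMB10 had 49.6 ± 4.40 TPM, PSMB9 45.7 ± 2.43 and PSMB8 3.53 ± 0.05 TPM (mean ± SD, n = 3), and the levels of PSMB10 and PSMB9 overlapped. The 3 replaced subunits had between 387 and 545 TPM, while PSMB2, the lowest standard beta subunit, had 76.9 TPM. The inducible genes made up 6.28%, 7.17% and 6.66% of the summed TPM of all 6 genes in the controls and 6.09%, 5.80% and 5.85% in 4HC. The mean share was 6.71 ± 0.448% in control and 5.92 ± 0.152% in 4HC, with no overlap.

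PSMB9 had 20.6, 22.7 and 20.3 CPM in the controls and 19.9, 17.4 and 19.4 CPM in 4HC. Every 4HC sample was below every control. Its log2 fold change was -0.17 with a 95% interval of -0.32 to -0.02, and it did not pass the test (adjusted p = 0.07, edgeR), while it passed with limma on the deposited TPM values (adjusted p = 0.044 with a pseudocount of 1) and without 4HC replicate 1 (-0.21, adjusted p = 0.044). PSMB10 had 19.7, 23.8 and 22.0 CPM against 21.0, 21.2 and 18.9 CPM, with overlapping groups and a log2 fold change of -0.10 (95% interval -0.25 to 0.05). PSMB8 had 2.34, 2.34 and 2.29 CPM against 2.72, 2.34 and 2.69 CPM. At this low level its log2 fold change of 0.15 had an interval of -0.24 to 0.55.

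Each inducible subunit was set against the standard subunit it replaces, sample by sample, as a log2 ratio of CPM. The standard partners PSMB6 and PSMB7 were not called, with 135, 129 and 134 against 143, 135 and 129.8 CPM for PSMB6 and 199, 199.5 and 192 against 202, 206 and 206 CPM for PSMB7. The ratio of PSMB9 to PSMB6 was -2.70, -2.50 and -2.71 in the controls and -2.84, -2.95 and -2.74 in 4HC, and every 4HC sample was lower. The difference was -0.20 (exact permutation test, two-sided, p = 0.1, the smallest p that 3 against 3 samples can give, 0.3 after adjustment over the 3 pairs). The ratio of PSMB10 to PSMB7 differed by -0.16 (exact p = 0.3, adjusted 0.45) and that of PSMB8 to PSMB5 by 0.04 (exact p = 0.5, adjusted 0.5), both with overlapping groups.

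**Figure D3:**
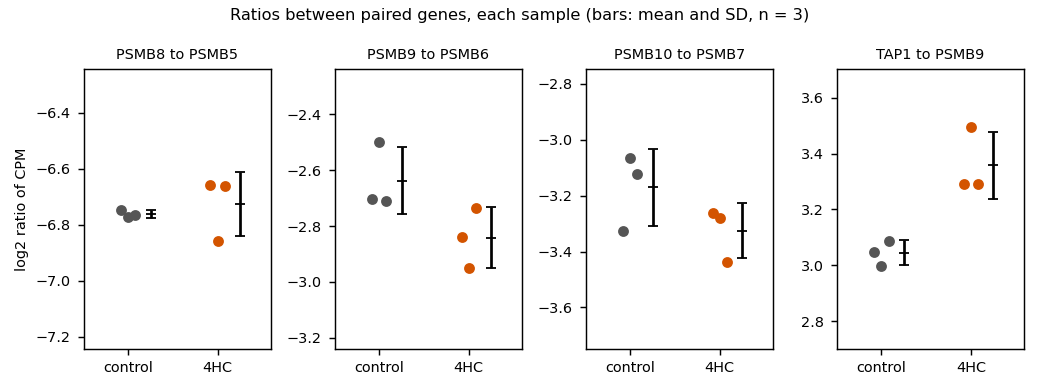
Log2 ratio of CPM between paired genes in each sample (points) with the mean and SD of the 3 samples of a group (bars), for the inducible subunits over the standard subunits they replace and for TAP1 over PSMB9. The groups do not overlap for PSMB9 to PSMB6, which is lower in 4HC, and for TAP1 to PSMB9, which is higher.

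PSMB9 lies head to head with TAP1, a subunit of the transporter that carries peptides made by the proteasome into the endoplasmic reticulum. This pair was compared after its values were seen. TAP1 (NCBI Gene 6890, chr6:32845209-32853978, minus strand) had 171, 182 and 174 CPM in the controls and 195, 197 and 191 CPM in 4HC. It was higher in every 4HC sample, by a log2 fold change of 0.15 (SE 0.036, adjusted p = 0.0012). The log2 ratio of TAP1 to PSMB9 was 3.05, 3.00 and 3.09 in the controls and 3.29, 3.50 and 3.29 in 4HC, a difference of 0.31 with no overlap (exact permutation test, two-sided, p = 0.1, the smallest possible). Their RefSeq promoters are shown since the genes start 487 bases apart on opposite strands, TAP1 being higher and PSMB9 not called. Capitals mark TGACNNNGC, CCAAT and the core of the interferon response element (GAAA, any 2 bases, GAAA), on either strand.
PSMB9 (chr6:32853942-32854241, plus strand): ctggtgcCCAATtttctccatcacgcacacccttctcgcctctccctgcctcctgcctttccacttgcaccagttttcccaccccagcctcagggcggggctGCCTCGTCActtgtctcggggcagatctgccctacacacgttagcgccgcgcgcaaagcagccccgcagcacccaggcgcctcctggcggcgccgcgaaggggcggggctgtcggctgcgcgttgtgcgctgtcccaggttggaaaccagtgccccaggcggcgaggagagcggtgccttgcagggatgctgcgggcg
TAP1 (chr6:32853655-32853954, minus strand): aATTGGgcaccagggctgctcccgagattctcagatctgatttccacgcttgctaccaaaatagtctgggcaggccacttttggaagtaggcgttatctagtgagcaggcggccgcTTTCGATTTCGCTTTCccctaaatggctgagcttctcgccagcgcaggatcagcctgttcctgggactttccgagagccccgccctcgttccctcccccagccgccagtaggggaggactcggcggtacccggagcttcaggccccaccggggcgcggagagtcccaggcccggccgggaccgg
The windows share 13 bases, and the CCAAT near the first base of each is the same site. TGACNNNGC is in the PSMB9 window on the reverse strand, at -148. The interferon response core is in the TAP1 window on the reverse strand, in overlapping matches at -134 and -128, and is not in the PSMB9 window. These matches lie between the starts of both genes, farther from PSMB9 than the 250 bases searched before its start. This motif was chosen after the values were seen. It was in 7 of the 50 proteasome promoters (14%) and in 3.57% of all promoters, and the genes that had it were PSMA4, PSMB4, PSMB8, PSMB10, PSME1, PSME2 and PSMG4. Of these, PSME1 was lower and the others were not called. PSMB9 is annotated in GENCODE release 29 at chr6:32844136-32859585, across TAP1 and part of PSMB8, and exons of PSMB8, PSMB9 and TAP1 overlap those of PSMB8-AS1. The sources used here do not state that the counting used strand, and without it reads of overlapping exons cannot be told apart.

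In the regulatory particle all 20 genes were tested, of which 1 was higher and 7 were lower (5% and 35%, against 19.2% and 17.1% of all genes), and their median log2 fold change was -0.07. The count of lower genes was 3 without control replicate 3 and 4 without control replicate 1, and that of higher genes was 2 without control replicate 2 or 4HC replicate 3. In the ATPase ring, which is built from PSMC1 to PSMC6, PSMC3 was higher and PSMC4 and PSMC6 were lower. PSMC3 (NCBI Gene 5702, chr11:47418769-47426473, minus strand) had 188, 188 and 193 CPM in the controls and 202, 205 and 211 CPM in 4HC. All 4HC samples were above all controls, with a log2 fold change of 0.12 (SE 0.035, adjusted p = 0.0058). PSMC4 and PSMC6 both had a log2 fold change of -0.13 (adjusted p = 0.0095 and 0.013) and no overlap. They did not pass without control replicate 3 (PSMC4, adjusted p = 0.087) and without control replicate 1 or 4HC replicate 2 (PSMC6, 0.062 and 0.052). The other 3 ATPases had log2 fold changes between -0.07 and 0.02.

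Of the 14 non-ATPase subunits, 5 were lower and 0 were higher (edgeR, 35.7% and 0%, against 17.1% and 19.2% of all genes). At an unadjusted p-value under 0.05 (edgeR), 7 were lower and 1 was higher, PSMD8 (247, 259.9 and 249.5 against 265, 274 and 261 CPM). Fewer were lower with the other tools. DESeq2 and limma on TPM each gave 0 higher and 3 lower, and limma on FPKM gave 1 higher and 2 lower. PSMD6, a subunit of the lid (NCBI Gene 9861, chr3:64010549-64024010, minus strand), had 111, 106 and 109 CPM in the controls and 98.2, 94.7 and 93.0 CPM in 4HC. The groups did not overlap, and the log2 fold change was -0.19 (SE 0.041, adjusted p = 0.00023). PSMD7, which pairs with the deubiquitinase PSMD14 in the lid, had a log2 fold change of -0.12 (adjusted p = 0.0066) and PSMD11, another lid subunit, of -0.11 (adjusted p = 0.014), both without overlap. PSMD11 did not pass without control replicate 3 or 4HC replicate 3 (adjusted p = 0.063 and 0.067). PSMD14 itself was not called (-0.06, adjusted p = 0.17). PSMD10 (gankyrin) and PSMD5 are chaperones of the ATPase ring that carry the name of subunits. PSMD10 had 51.2, 48.1 and 52.4 CPM against 41.1, 46.4 and 48.4 CPM, so that 4HC replicate 3 overlapped the controls, with a log2 fold change of -0.16 (adjusted p = 0.021). It did not pass without control replicate 1, control replicate 3 or 4HC replicate 1, and its log2 fold change was -0.10 without the last (adjusted p = 0.2). PSMD5 was called by a small margin (-0.12, adjusted p = 0.046). It did not pass without control replicate 1 or 3 or 4HC replicate 1 or 2, with the smallest change without control replicate 3 (-0.07, adjusted p = 0.33). The remaining 9 subunits had log2 fold changes between -0.08 and 0.08. PSMD2, a scaffold that binds ubiquitin-like domains and the most abundant per length of the PSMD genes, had 521, 556 and 563 CPM against 571, 546 and 535 CPM, a log2 fold change of 0.01 with an interval of -0.06 to 0.08. PSMD9, a chaperone and the least abundant, had 43.9, 47.2 and 43.6 CPM against 48.6, 46.5 and 46.3 CPM, and overlapped (0.07, adjusted p = 0.32).

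The activators cap the core in place of the regulatory particle, and 3 of the 4 were lower, where 17.1% of all genes were. PSME3, which forms the activator of the nucleus (NCBI Gene 10197, chr17:42824385-42843758, plus strand), had 186, 201 and 190.0 CPM in the controls and 174, 163 and 168 CPM in 4HC. The groups did not overlap, and the log2 fold change was -0.19 (SE 0.037, adjusted p = 4.2e-05), the smallest adjusted p of the proteasome genes. PSME1 and PSME2 are the paired subunits of the interferon-inducible activator. PSME1 had 112, 119.9 and 115 CPM against 104, 104 and 109 CPM and was lower without overlap (-0.14, SE 0.041, adjusted p = 0.0068). PSME2 had 158, 159 and 162 CPM against 159, 165 and 162 CPM and was not called (0.02, 95% interval -0.05 to 0.09). PSME4, the large activator that binds acetylated histones, had 138, 141 and 145 CPM against 129.8, 129 and 135 CPM. It was lower without overlap (-0.11, adjusted p = 0.021), and did not pass without control replicate 3 (-0.09, adjusted p = 0.11) or 4HC replicate 2 (-0.10, adjusted p = 0.095). The summed TPM of the 4 genes was 869, 895 and 901 in the controls and 843, 844 and 858 in 4HC.

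Among the 5 genes of assembly and inhibition, 2 were higher and 2 were lower (40% each, against 19.2% and 17.1% of all genes). The count of higher genes was 1 without control replicate 1 or 2 or 4HC replicate 2 or 3. The count of lower genes was 0 without 4HC replicate 2 and 1 without control replicate 2 or 3 or 4HC replicate 1 or 3. PSMG1 and PSMG2 form a dimer that helps to build the alpha ring. PSMG1 had 54.2, 54.9 and 56.6 CPM against 48.9, 50.1 and 51.3 CPM and was lower without overlap (-0.14, SE 0.050, adjusted p = 0.024). PSMG2 had 46.1, 47.1 and 50.3 CPM against 51.3, 54.1 and 52.9 CPM and was higher without overlap (0.14, SE 0.052, adjusted p = 0.027). Neither call held when DESeq2 was used (adjusted p = 0.069 and 0.11). PSMG1 did not pass without control replicate 3, 4HC replicate 1 or 4HC replicate 2 (adjusted p up to 0.10), and PSMG2 without control replicate 1 or 2 or 4HC replicate 2 or 3 (adjusted p up to 0.14). PSMG3 and PSMG4 form the other dimer. PSMG3 (NCBI Gene 84262, chr7:1567330-1571005, minus strand) had 38.7, 40.4 and 38.7 CPM against 44.1, 46.3 and 43.9 CPM. It had no overlap and the largest rise of the proteasome genes (0.19, SE 0.054, adjusted p = 0.0047).

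PSMG4, its partner, had 22.0, 21.2 and 23.4 CPM against 21.1, 22.0 and 18.5 CPM and was not called (-0.11, 95% interval -0.26 to 0.03). PSMF1, an inhibitor of the core, had 106, 113 and 100.4 CPM against 102, 94.7 and 95.7 CPM. It was lower (-0.13, adjusted p = 0.018) although control replicate 3 was below 4HC replicate 1. It did not pass without control replicate 2 (-0.08, adjusted p = 0.17), 4HC replicate 2 (-0.11, adjusted p = 0.096) or 4HC replicate 3 (-0.12, adjusted p = 0.053).

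The level per length differed between subunits of the same particle by far more than any of them changed. These levels and their order rest on the transcript lengths of the annotation. In CPM, which do not use length, the control means were 135 for PSMA5 and 255 for PSMA1, and 203 for PSMB2 and 132 for PSMB6. In the controls the tested alpha subunits lay between 60.0 TPM (PSMA5) and 447 TPM (PSMA1), and PSMA1 and PSMA7 (433 TPM) overlapped while each of the other neighbours in the order did not. The standard beta subunits lay between 76.9 TPM (PSMB2) and 767 TPM (PSMB4), with no overlap between neighbours. The ATPases spanned 85.6 TPM (PSMC6) to 282 TPM (PSMC5), also with no overlap. The non-ATPase genes spanned 28.8 TPM (PSMD9) to 326 TPM (PSMD2), and PSMD8 overlapped PSMD2, PSMD4 overlapped PSMD13 and PSMD3 overlapped PSMD6. The activators stood at 486 TPM (PSME2), 267 TPM (PSME1), 104 TPM (PSME3) and 31.8 TPM (PSME4), and PSME2 and PSME1, which share a ring, did not overlap. In the assembly group PSMG3 was highest (109 TPM) and PSMF1 lowest (21.4 TPM), and PSMG1 and PSMG2 overlapped. The summed TPM of the core was 5520 ± 40.6 in control and 5601 ± 35.5 in 4HC, that of the regulatory particle 3178 ± 57.7 and 3095 ± 23.7 (mean ± SD, n = 3). The groups did not overlap in either sum, and these sums were not tested.

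**Figure D4:**
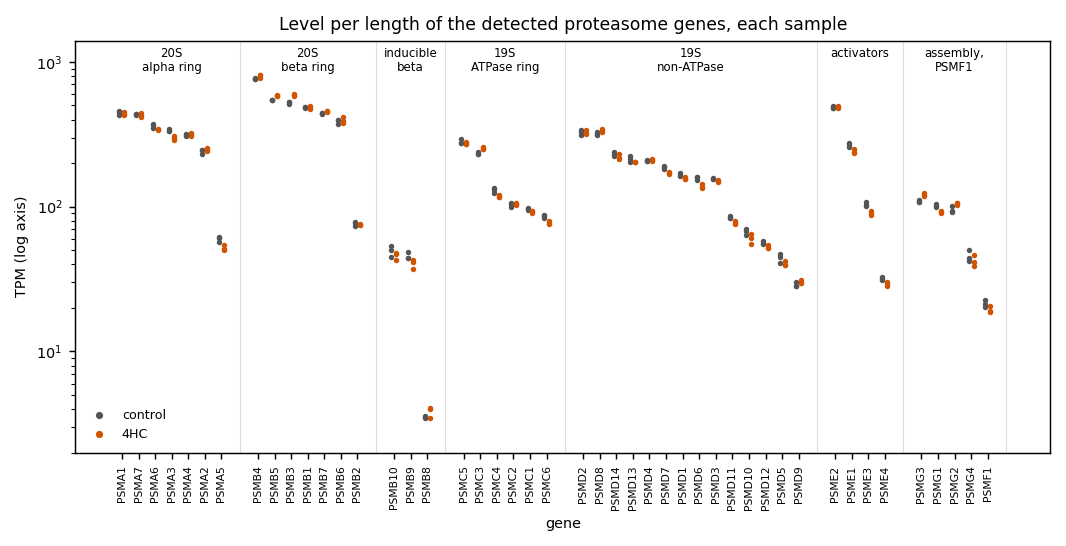
Deposited TPM of each detected proteasome gene on a log axis in the 3 control samples (grey) and the 3 samples of 4HC (orange), ordered by control level within each role. The inducible beta subunits lie below 60 TPM with PSMB8 lowest, most standard beta subunits lie above 370 TPM, and the samples of a gene lie close together in both groups.

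The 47 genes had 142 transcripts in the deposited transcript table, and 102 could be tested. None of them was called in either direction (edgeR, adjusted p under 0.05 over 42216 transcripts, where 1.29% were called), and the smallest adjusted p was 0.067, for the main transcript of PSMB5. At an unadjusted p-value under 0.05, 9 were higher and 17 were lower, 26 of 102, against 11% of all transcripts tested. These counts include second copies of the same transcript, without which 8 were higher and 15 lower, 23 of 89. The median standard error was 0.13 for these transcripts, with a lower quartile of 0.035, and 0.037 for the genes. The main transcript of PSMA3 had a log2 fold change of -0.17 (SE 0.035, adjusted p = 0.10, edgeR), and that of PSMB5 had 0.11 (SE 0.019). The genes PSMA3 and PSMB5 had -0.17 (SE 0.039) and 0.11 (SE 0.033) and were called. Why no transcript passed was not tested. In 34 genes a single transcript held over 90% of the counts. Of the 142 entries, 28 were second copies of a listed transcript, from alternate versions of the locus, in PSMB3, PSMB8, PSMB9, PSMC4, PSME1 and PSME2, and 24 of them had the same counts as the listed transcript. PSMB3 was divided into 50% and 50% in this way. The gene counts hold the sum of all copies. In GENCODE release 29, 12 of the genes have named pseudogenes (32 in all), among them the called genes PSMA3, PSMB3, PSMD7 and PSMD10, and 17 have exons that overlap those of another gene, so that reads of these genes are uncertain where they are shared.

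The genes around the proteasome were taken from 5 lists, of which 53 genes were tested. Of these, 9 were higher and 18 were lower (17% and 34% of the 53, against 19.2% and 17.1% of all genes), and their median log2 fold change was -0.05. The excess of lower genes was smaller with library size alone (11 higher and 15 lower) and with limma on FPKM (10 higher and 12 lower). Of the 15 proteins that bind the proteasome or act beside it, 1 was higher and 7 were lower (6.67% and 46.7%, against 19.2% and 17.1% of all genes). DESeq2 gave 0 higher and 5 lower, limma on TPM 0 and 6, and limma on FPKM 0 and 4. UBE3A, a ubiquitin ligase that binds the proteasome, had 135, 127 and 124 CPM in the controls and 106, 106 and 110.0 CPM in 4HC, and was lower without overlap (-0.26, SE 0.041, adjusted p = 1.2e-06). AKIRIN2, which brings the proteasome into the nucleus, had 20.1, 22.6 and 24.4 CPM against 18.2, 19.3 and 19.6 CPM (-0.23, adjusted p = 0.011), and did not pass without control replicate 3 (-0.17, adjusted p = 0.13). HUWE1, a large ubiquitin ligase, was lower (-0.19, adjusted p = 1.8e-05). ADRM1, a ubiquitin receptor of the regulatory particle, was the only higher gene of the list (113, 116 and 116 against 131, 127 and 116 CPM), with overlap of 4HC replicate 3 and a log2 fold change of 0.11 (adjusted p = 0.033). It did not pass without control replicate 1 or 3 or 4HC replicate 1 or 2, and was at 0.07 without 4HC replicate 1 (adjusted p = 0.27). With DESeq2 neither ADRM1 nor AKIRIN2 passed (adjusted p = 0.11 and 0.069). With limma on FPKM neither passed (adjusted p = 0.054 and 0.051), and on TPM ADRM1 did not. POMP, the chaperone that completes the core, was not called (94.3, 88.1 and 96.0 against 92.0, 93.2 and 85.4 CPM), nor was PAAF1, a chaperone of the ATPase ring, which had no overlap (23.7, 24.2 and 25.3 against 25.9, 26.6 and 27.5 CPM, adjusted p = 0.12).

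Of the 5 tested receptors that carry ubiquitinated proteins to the proteasome, 3 were lower and 0 were higher (edgeR). These were 60% and 0%, against 17.1% and 19.2% of all genes. The count of higher genes was also 0 at an unadjusted p-value under 0.05 and with DESeq2 or limma. The median log2 fold change of the 5 receptors was -0.16. RAD23B had 235, 227 and 244 CPM in the controls and 191, 190.1 and 199.7 CPM in 4HC. It was lower without overlap (-0.28, SE 0.036, adjusted p = 7e-09). UBQLN1 had 239, 225 and 229 CPM against 194, 199.7 and 192 CPM and was lower without overlap (-0.25, adjusted p = 1.4e-07), and UBQLN2 had a log2 fold change of -0.16 (adjusted p = 0.0069). Among the genes of ubiquitin and its activating enzymes, UBB, which encodes a ubiquitin precursor, had 361, 362 and 371 CPM in the controls and 419.6, 429 and 434 CPM in 4HC. It was higher without overlap, with a log2 fold change of 0.23 (adjusted p = 5.2e-08). UBA1, the main activating enzyme, was lower with DESeq2 and not with edgeR (-0.07, adjusted p = 0.062).

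In the NFE2L1 pathway 3 of 12 genes were higher and 3 were lower (25% each, against 19.2% and 17.1% of all genes). NFE2L1 itself had 221, 228 and 221 CPM in the controls and 196, 188 and 192 CPM in 4HC. It was lower without overlap (-0.22, SE 0.035, adjusted p = 1.5e-06). VCP, which extracts it from the membrane, was lower (-0.17, adjusted p = 5.4e-05), and so was DDI2, the protease that cuts it (-0.15, adjusted p = 0.0062). DDI2 did not pass without control replicate 1 (-0.13, adjusted p = 0.051) or with limma on TPM and FPKM values (adjusted p of 0.086 to 0.14). UFD1, a cofactor of VCP, had 77.0, 77.1 and 74.6 CPM against 92.1, 92.8 and 86.2 CPM and was higher without overlap (0.25, adjusted p = 1.2e-05). FBXW7, the substrate receptor of a ligase that degrades NFE2L1, had 25.4, 25.8 and 23.6 CPM against 37.9, 39.8 and 41.2 CPM. Its log2 fold change of 0.67 (SE 0.061, adjusted p = 3.6e-13) was the largest in these lists. MAFF, a partner of NFE2L1 on DNA, was higher (0.37, adjusted p = 0.011), and did not pass without 4HC replicate 2 (0.32, adjusted p = 0.059) or with DESeq2 (adjusted p = 0.078).

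Of the 15 genes of MHC class I antigen processing, which uses the peptides of the proteasome, 3 were higher and 5 were lower. These were 20% and 33.3%, against 19.2% and 17.1% of all genes. The balance depended on the setting. At an unadjusted p-value under 0.05 (edgeR), 5 were higher and 5 were lower, and with limma on FPKM 5 were higher and 3 were lower. HLA-B had 395, 399 and 374 CPM in the controls and 479, 473 and 472 CPM in 4HC and was higher without overlap (0.29, SE 0.032, adjusted p = 2.4e-10). TAP1 and the chaperone CALR were the other higher genes, and CALR (0.11, adjusted p = 0.0039) did not pass without control replicate 1 (0.08, adjusted p = 0.071). TAP2, the partner of TAP1 in the transporter, had 92.0, 91.0 and 101 CPM against 82.9, 80.7 and 84.3 CPM and was lower (-0.20, adjusted p = 0.00034). NLRC5, which activates class I genes, and PDIA3, which helps to load the peptides, were lower as well (-0.20 and -0.16, adjusted p = 0.0014 and 9.1e-05).

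**Figure D5:**
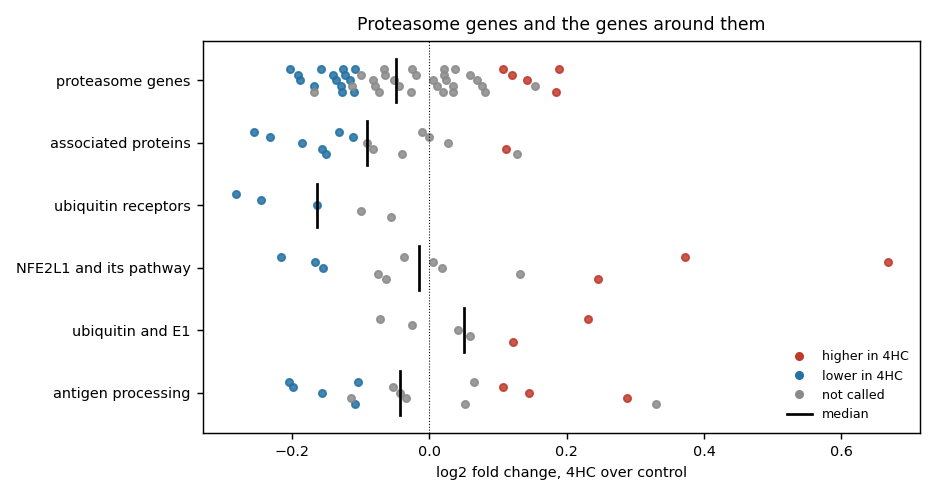
Log2 fold change in 4HC over control of each tested gene (points) in the proteasome and in 5 lists around it, with the median of each list (bars). The medians lie between -0.16 for the ubiquitin receptors and 0.05 for ubiquitin and E1, and FBXW7 lies farthest out at 0.67.

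Gene span was compared with the change, as a property that the choice of the genes did not use. The proteasome genes had a median span of 16.8 kb against 33.2 kb for all genes tested. Of the 14 proteasome genes under 10 kb, 2 were higher and 4 were lower, and their median log2 fold change was 0.01. These were 14.3% and 28.6%, against 22.5% and 13.9% of all genes of that span. Of the 24 from 10 to 50 kb, 2 were higher and 8 were lower (8.3% and 33.3%, against 20.6% and 17.3%, median -0.06). Of the 8 over 50 kb, 1 was higher and 2 were lower (12.5% and 25%, against 16.2% and 18.4%, median -0.07). Over all genes tested the same medians were 0.04, 0.01 and -0.01. Across the 46 genes Spearman's rho between span and log2 fold change was -0.22, and across 12038 genes it was -0.10. These correlations are across genes, which share the 6 libraries and are not independent replicates.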

How the data were processed

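Total RNA of 6 samples of COV434 cells (3 control, 3 treated with 15 µM 4HC for 24 h) was sequenced by the authors, who removed poor reads with SOAPnuke and used the Dr. Tom system. The submitters' processing notes list HISAT2, Bowtie2, RSEM 1.3.1, DESeq2 1.4.5 and GRCh38.p13, without their order. For every gene and transcript the authors deposited expected counts, which estimate the reads from it and were whole numbers in 85.5% of gene values and 38.9% of transcript values. The deposited TPM values are scaled to length and to a fixed sum per sample, and the deposited FPKM values are scaled to length and sequencing depth. The authors' own fold changes and p-values were not used.

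Samples were grouped by their titles. The test, on rounded expected counts, was that of edgeR 4.0.16 under R 4.3.3 (TMM, filterByExpr, quasi-likelihood test, condition as the only term), with Benjamini-Hochberg adjustment over 12368 genes or 42216 transcripts. CPM are TMM-normalized. The biological coefficient of variation was 0.0277, and replicates differed beyond sampling noise in each pair (chi-square per gene of 1.70 to 2.47). Ratios were taken as log2(CPM + 0.1) and tested by exact permutation. Scripts were tested on simulated counts. Gene coordinates, spans, pseudogenes and exon overlaps are those of GENCODE release 29, and promoters those of RefSeq (GRCh38.p14).

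The proteasome genes, the lists around them and the markers were chosen with earlier results of these data known. Values per sample were given by rule for the 8 largest rises and 8 largest falls among called genes, the inducible subunits with their partners, all PSME, PSMG and PSMF genes, and the genes with the highest or lowest level in each role. Of each list around the proteasome up to 3 called genes in each direction were named, with NFE2L1, POMP and PAAF1. Some genes of the list of ubiquitin and its activating enzymes are not reported here one by one. PSMA6, PSMA7, PSMB2, PSMC4, PSMC6, PSMD5, PSMD7, PSMD8, PSMD11, PSMD14, UBA1 and the ratio of TAP1 to PSMB9 were added after their values were seen. Alternatives were DESeq2 1.42.0, its size factors within edgeR, library size alone, no filter, a minimum of 10 counts per sample, replicate number added as a block, a fold of at least 2, limma 3.58.1 on log2 of TPM (pseudocount 1 or 0.1) or FPKM, and the removal of each sample. Python 3.11.15, pandas 2.3.3, scipy 1.17.1 and matplotlib 3.10.9 were used. A comparison of protein sequences was not made.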

Additional observations from a re-analysis of the deposited data

How the results depend on the processing

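No gene named here as higher or lower changed sign under any alternative run. Of the proteasome genes that were not called, 4 changed sign in some setting (PSMA1, PSMA7, PSMB6 and PSMD2), with log2 fold changes of at most 0.036 in size. Requiring a fold of at least 2 left 0 called genes in every count of the proteasome, its roles and the surrounding lists, since these changes were small. With limma on FPKM, 7 proteasome genes were higher and 9 lower, and 2 genes of the regulatory particle were higher and 4 lower. With library size alone 7 proteasome genes were higher and 10 lower, and 2 regulatory genes were higher. Of the genes of assembly and inhibition, 1 was higher and 1 lower with DESeq2, 0 were lower with library size alone, and 1 was lower with limma on TPM (either pseudocount) or FPKM. The cause was not tested.

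With single samples removed, 4 to 6 proteasome genes were higher and 8 to 14 lower. In the core, 2 to 3 were higher and 2 to 3 lower, and in the regulatory particle 1 to 2 and 3 to 8. Of the activators 2 to 3 were lower, and of the assembly group 1 to 2 were higher and 0 to 2 lower. In the surrounding lists 7 to 10 were higher and 15 to 18 lower. The differences of the log2 ratios ranged from 0.00 to 0.10 (PSMB8 to PSMB5), -0.26 to -0.13 (PSMB9 to PSMB6), -0.23 to -0.10 (PSMB10 to PSMB7) and 0.25 to 0.35 (TAP1 to PSMB9). The transcripts of the proteasome genes gave 0 calls in every setting run, and DESeq2 and limma were not run on them.

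The labels give both groups the replicate numbers 1 to 3, without saying that a number marks a shared batch, and the deviations of samples with the same number correlated at 0.00866, 0.0694 and 0.0302. Control replicate 1 correlated best with 4HC replicate 3 rather than with its own number. With the replicate number as a block, 4213 genes were called in place of 4497, and 5 proteasome genes were higher and 14 lower. In the surrounding lists 8 were higher and 18 lower, and ADRM1 did not pass (adjusted p = 0.059). Every scaling moved the median of all genes by less than 0.1 on the log2 scale, a bound wider than the median change of the proteasome genes. With library size alone the median of all genes was 0.0255 in place of 0.00474. That of the proteasome genes was -0.0274 in place of -0.0481, with 10 lower genes in place of 14. Depth limited PSMB8 and PSMA8, and 3 samples per group limited the ratios, whose smallest two-sided p by exact permutation is 0.1. With 3 samples per group no test for an outlier was made.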
